A study of Mus musculus with 6 samples.

Results

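The longest acetylated tracts of distal forelimb chromatin were obtained by joining neighbouring H3K27ac regions. Regions called in the distal forelimb (DFL) that lay within 2 kb of a start of a protein-coding gene were set aside, the remaining ones were joined when at most 12500 bp apart, and the base pairs covered by regions were summed in each joined stretch. This gave 21027 stretches on chromosomes 1 to 19 and X, of which the 300 with the largest covered length are described here. The members were thus chosen by DFL H3K27ac covered length, and those lengths are given as a description only. PFL regions were filtered in the same way and counted within the DFL stretches. The limit was not a natural break, since the stretch nearest Afap1l2, ranked 300, covered 4.70 kb and that nearest Spata18, the next one, covered 4.69 kb. The stretches just inside the limit nearest Gpr84, Ednra, Creb3l2 and Afap1l2 covered 4.70 to 4.75 kb, and the 5 just outside it (Spata18, Mid1, Id3, Socs3 and Foxk1) 4.67 to 4.69 kb.

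The libraries came from wild-type B6CBAF1 mouse embryos of the E12 stage, whose forelimb buds were cut into the DFL (future digits) and the remaining proximal forelimb (PFL), and pooled over embryos. Each piece was assayed by ChIP-seq for H3K27ac, H3K27me3 and the insulator protein CTCF, with 1 library per mark and piece, so no difference below has a replicate check and none was tested. Binding of HOXA13 and HOXD13 came from whole wild-type forelimbs at an earlier stage, which mix both pieces. All values rest on lists of called regions. The PFL H3K27ac list held 69503 regions and the DFL list 59804, so a PFL length above the DFL length is not by itself a gain of signal.

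H3K27ac marks the nucleosomes that flank active enhancers and promoters. Loci that specify cell identity often carry many such regions close together, known as stitched enhancers or, when ranked by signal, as super-enhancers. The ranking used here was by covered length and not by signal. In the distal limb, HOXA13 and HOXD13 bind digit enhancers, Polycomb deposits H3K27me3 on silent developmental genes, and CTCF with cohesin anchors chromatin loops.

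Sequences at the binding summits of a few members are given because the sections below turn on them. The first 4 are mm10 plus-strand windows of 81 bp centred on the highest-fold summit of the factor named, in stretches whose acetylation was longest in DFL relative to PFL, with CAATAAA or TCGTAAA (either strand) in capitals. Their folds over local background were 13.1, 7.99, 10.5 and 16.2 in the order given. The second lies inside II1, the enhancer of the HoxD landscape that the study moved to another site. These 4 windows are a choice from a larger set. The HOXA13 windows of the second HoxD and Dmap1 stretches also held a string. Neither string was in the HOXD13 windows of the Stx18 and II1 stretches. Both were also absent from the windows of either factor in the wide-excess stretches nearest Mecom, Ext1, Hoxa13 and Lmx1b.
Stx18 stretch, HOXA13, chr5:38099444-38099524: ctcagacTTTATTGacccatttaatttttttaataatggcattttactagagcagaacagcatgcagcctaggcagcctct
II1, HOXA13, chr2:74075729-74075809: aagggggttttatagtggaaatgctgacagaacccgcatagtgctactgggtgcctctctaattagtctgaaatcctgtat
Second HoxD stretch, HOXD13, chr2:74190804-74190884: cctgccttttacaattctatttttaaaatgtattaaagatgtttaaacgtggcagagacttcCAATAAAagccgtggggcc
Dmap1 stretch, HOXD13, chr4:117658969-117659049: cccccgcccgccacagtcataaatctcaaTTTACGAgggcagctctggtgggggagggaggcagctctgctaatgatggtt
The next 3 windows are DFL CTCF summits from the member that spans Firre, an X-linked non-coding gene, with TACTGCC (either strand) in capitals because it recurs there.
Firre, chrX:50566511-50566591: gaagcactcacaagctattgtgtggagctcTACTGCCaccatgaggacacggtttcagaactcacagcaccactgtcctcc
Firre, chrX:50580327-50580407: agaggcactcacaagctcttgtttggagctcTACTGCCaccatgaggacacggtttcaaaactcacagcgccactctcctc
Firre, chrX:50605665-50605745: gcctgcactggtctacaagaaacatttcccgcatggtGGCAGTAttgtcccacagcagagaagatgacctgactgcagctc
The last set holds mature miRNAs (RefSeq, GRCm38.p6) whose genes lie inside members, with the seed (bases 2 to 8) in capitals.
mmu-miR-199a-3p: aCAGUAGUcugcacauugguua
mmu-miR-199b-3p: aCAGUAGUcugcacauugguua
mmu-miR-214-3p: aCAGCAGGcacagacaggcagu
mmu-miR-125b-5p: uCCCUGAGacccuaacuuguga
mmu-miR-205-5p: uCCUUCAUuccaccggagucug
mmu-miR-24-3p: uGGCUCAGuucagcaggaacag

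The members covered a median of 5.79 kb of DFL H3K27ac in a median of 9 regions, against 3.99 kb in 6 regions in the next 300 stretches. Together the members held 3133 of the 41454 gene-distant regions and 9.82% of their covered length. Their spans ranged over 5.76 to 212 kb with a median of 40.9 kb, and regions filled 15.1% of the summed span. Most of the summed span thus lay in the gaps, though this did not hold for every member. Individual regions were somewhat longer in members (median 498 bp) than in all other stretches (377 bp). Their fold over local background was nearly the same, with medians of 2.59 and 2.61. The members thus stood apart by the number of regions rather than by the fold of single regions, which follows in part from the ranking. Fold divides by a local background taken from the same library, so a similar fold does not mean a similar height of signal.

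The largest member, called the Dnm3 tract here, held 49 regions on chr1:161976703-162188453. It overlapped Dnm3, a dynamin family GTPase gene, and the protein-coding gene 4930558K02Rik, whose start lay inside it. It covered 43.6 kb in DFL and 47.5 kb in PFL. The second was an intergenic stretch of 200 kb on chr13:60298565-60498131, whose nearest start was that of Dapk1, a death-associated kinase. It covered 26.0 kb in DFL and 26.3 kb in PFL. The next was nearest Haao, with 19.5 kb in DFL and 20.6 kb in PFL. In these 3 tracts PFL was thus at least as long as DFL, as the plot of covered length by rank shows.

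**Figure D1:**
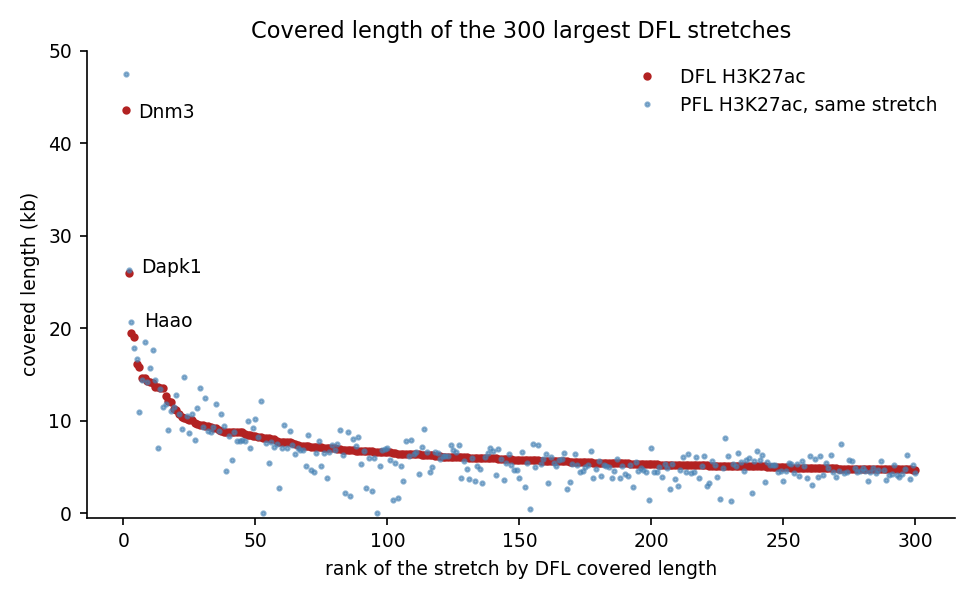
Covered length of H3K27ac in kb (vertical axis) of each of the 300 members by rank (horizontal axis), with DFL in red and PFL regions of the same stretch in blue. The Dnm3 stretch reached 43.6 kb in DFL and 47.5 kb in PFL, and the red curve flattened to 4.70 kb at rank 300 while PFL values scattered on both sides of it.

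The nearest start to each of the 20 largest members was at very different distances. Gas1, a Hedgehog co-receptor, was the nearest gene, 65.6 kb away, of a stretch of 13.6 kb in DFL and 14.4 kb in PFL. Hhat, whose product attaches palmitate to Hedgehog ligands, was nearest to 11.2 kb in DFL and 12.7 kb in PFL, 7.70 kb from its start. The stretch nearest Lmx1b, the dorsal identity factor of the limb, lay 60.5 kb from its start over Mvb12b and covered 15.8 kb in DFL and 10.9 kb in PFL. Sox6, a cartilage transcription factor, was overlapped 178 kb from its start by 12.1 kb in DFL and 8.99 kb in PFL. Mecom, a zinc finger transcription factor gene, was nearest to 13.6 kb in DFL and 7.08 kb in PFL. The stretch over Notch2 was nearly even, with 13.5 kb in DFL and 13.4 kb in PFL. An intergenic stretch 383 kb from Zmiz1, its nearest start, held 12.7 kb in DFL and 11.8 kb in PFL. The remaining ones of the 20 were nearest to Sorl1, Tns4, Cstad, Cpa5, Wwp2, Mrpl23, Irf2bpl, Creb5, Rpusd4 and Nmur1, with 11.3 to 19.0 kb in DFL.

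The 300 members had 266 different nearest genes. Mecom was nearest to 4 members, and Zfhx3, Prickle1, Smad7 and Zfp36l1 to 3 each. Some members also lay near each other along chromosomes. When members within 500 kb of each other were joined, 123 of them fell into 48 loci with at least 2 members. No such count is given for other stretches, so whether members lay closer together than other stretches was not tested. A stretch also ended wherever a gap exceeded the joining distance, so a long tract could give several members. The locus with most members, 5 over 1141 kb of chromosome 6 with nearest genes Tax1bp1, Jazf1, Creb5 and Cpvl, summed to 38 kb in DFL and 30.0 kb in PFL. At Mecom 4 members summed to 30.4 kb in DFL and 17.8 kb in PFL. Around Zfp36l1, which encodes an RNA-binding protein of mRNA decay, and its neighbour Rad51b, 4 members summed to 25.1 kb in DFL and 31.8 kb in PFL.

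Of the members, 32 had a protein-coding start inside the span and 192 overlapped the body of a protein-coding gene. The nearest start was a median of 30.1 kb away and over 100 kb away for 60 members. Only protein-coding starts had been set aside, and 98 of 300 members (32.7%, Wilson 95% interval 27.6 to 38.2%) had a region within 2 kb of a non-coding gene start, against 7.20% of all other stretches. At the level of regions the shares were close, 5.84% in members and 5.30% elsewhere. Such regions made up 7.92% of the members' covered length.

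Among the 4 members with the tallest DFL summits, 3 were stretches over non-coding genes. Regions near protein-coding starts had been set aside, so regions at starts could remain only at non-coding genes. The heights below are therefore shaped by the rule. From each region's fold and p-value the summit pileup and local background were recovered and expressed as multiples of the lowest background in the list. The exception among the 4 was the stretch nearest Nmur1, at 29.8 times. The highest pileup of any member, 31.4 times, was in the stretch over Dnm3os, the non-coding RNA that hosts Mir199a-2 and Mir214. Its longest region of 3796 bp, the longest in any stretch, had a fold of only 1.62, since fold divides by a local background that was itself 19.3 times the lowest there. The Mir199b stretch reached 29.8 times and the Mir125b-1 stretch 29.6 times in a span of 6.28 kb with a highest fold of 2.06. At Hoxa13, which overlaps the non-coding gene Hottip, the tallest summit was 25.3 times at a fold of 1.60. The median of the tallest summit was 17 times in the 98 members with a non-coding start and 12.53 times in the other 202.

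The RefSeq miRNA table used here, which is not complete, placed 15 hairpins in 10 members, of 74 hairpins inside any stretch. By the gene annotation the member nearest Il17b also spanned Mir143 and Mir145a. Mir199a-2, Mir214, Mir199b, Mir125b-1, Mir205 and Mir675 were among those that overlapped an H3K27ac region directly. Mir199a-2 and Mir199b lie on chromosomes 1 and 2 in the members ranked 89 and 137, and their 3p arms are the same sequence with the seed CAGUAGU. The cluster of Mir23b, Mir27b and Mir24-1 lay in the member ranked 90, between 153 and 871 bp from the nearest region. H19, the imprinted non-coding RNA that hosts Mir675, lay in the member nearest Mrpl23 (14.1 kb in DFL, 15.7 kb in PFL). H3K27ac at these genes does not measure the miRNAs.

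Acetylation of the members was largely shared by both pieces. Summed over the members, PFL regions covered 1.92 Mb where DFL regions covered 2.04 Mb, a ratio of 0.939, against 0.744 over all other stretches. The next 300 stretches were much like the members in this. Their median lengths were 3.99 kb in DFL and 3.69 kb in PFL, against 5.79 and 5.55 kb in members. Of the members' regions, 75.6% overlapped a PFL region, compared with 62.4% of the regions of other stretches. Longer regions were shared more often everywhere, and in the class over 609 bp the shares were 93.5% in members and 88.8% elsewhere. PFL length exceeded DFL length in 124 members even though the DFL length had chosen them. The tallest DFL summit divided by the tallest PFL summit, each over its own lowest background, had a median of 0.983 in members and 0.974 in the next 300.

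DFL covered length was at least 2 times that of PFL in 17 of 300 members (5.67%, interval 3.57 to 8.89%), whereas this held for 37.4% of all stretches, most of which are single regions. The rule itself used the DFL length. PFL length was at least 2 times that of DFL in 0 members, which allows a share of up to 1.26%, and in 0.556% of all stretches. Ranking the PFL list in the same way gave 300 stretches of 5.47 to 61.6 kb. Of the members, 166 (55.3%) overlapped 1 of these, and 166 of the PFL stretches (55.3%) overlapped a member, against 2.33% of all DFL stretches. Of the other 134, 2 overlapped no PFL stretch at all. The remaining 132 had a median rank of 622.5 for the largest PFL stretch they overlapped.

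**Figure D2:**
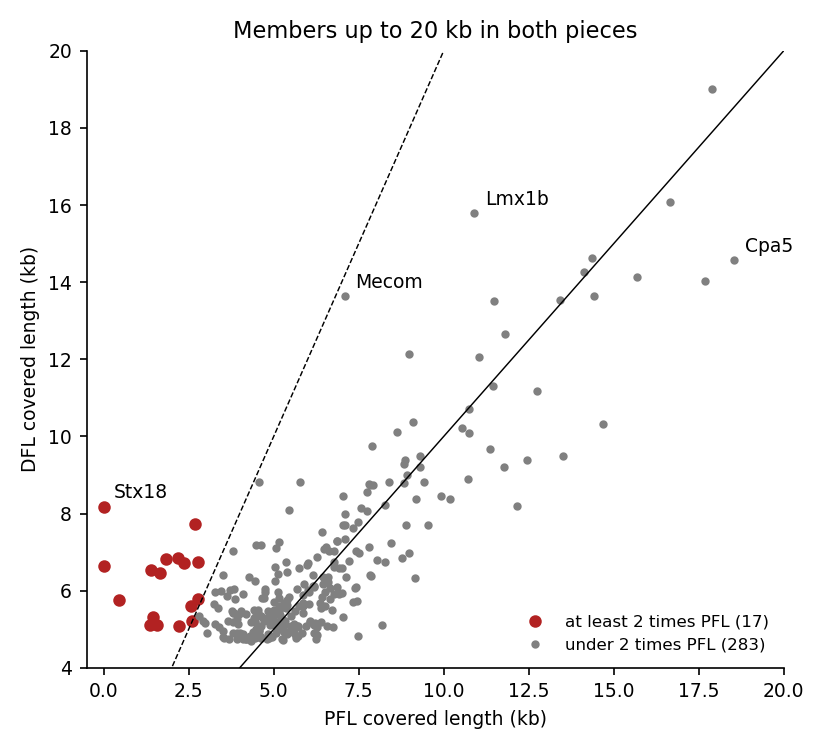
DFL covered length (vertical axis, kb) against PFL covered length (horizontal axis, kb) of the members below 20 kb in both pieces, which leaves out the 3 largest. The solid line marks equal lengths and the dashed line 2 times PFL, with the 17 members on or above it in red, the highest of them nearest Stx18 with 8.18 kb in DFL and 0 kb in PFL.

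Exactly 2 members had no called PFL H3K27ac region, which does not show that the mark was absent there. The stretch chr5:38064728-38107444 within and beside Stx18, a SNARE gene, held 12 regions and 8.18 kb in DFL and no region in PFL, the widest gap of any member. It lay 240 kb from a start of Msx1, a homeobox gene of the limb tip. Its folds ran from 1.75 to 4.70, and HOXA13 or HOXD13 regions overlapped 9 of the 12 H3K27ac regions.

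The other one, chr2:74063304-74124016, held 13 regions and 6.63 kb in DFL, and again none in PFL. It ended 544 kb from the start of Hoxd13, on the centromeric side of the HoxD cluster, where the digit enhancers of Hoxd genes are located, while its nearest start was that of Atp5g3. The II1 element (chr2:74075307-74075849, placed from the study's cloning primers) lay inside it, bridging the end of the longest region of the stretch (2258 bp, fold 3.48) and the gap to the next region. The HOXA13 summit printed above fell in that gap, and neither of the HOX13 letter strings searched was present in its window. The paper's own motif search did find HOX13 motifs in II1, clustered at the binding peak. Deleting them removed the distal limb staining of the relocated enhancer. Absence of these exact strings is therefore not absence of a HOX13 site.

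A second member on the same side of HoxD, chr2:74187654-74218979, ended 449 kb from Hoxd13. It held 6.83 kb in DFL and 1.84 kb in PFL. Its tallest DFL summit was 3.80 times the tallest PFL summit, the highest such ratio of any member. The Hoxa13 stretch, chr6:52252341-52276122, covered 6.54 kb in DFL and 1.39 kb in PFL. Its summit ratio was only 1.08, as both PFL regions lay on the first DFL region, which also held the tallest DFL summit.

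The other 13 stretches with at least 2 times the PFL length lay on 8 chromosomes, 4 of them on chromosome 4 and 3 on chromosome 15. Those nearest Ext1, which encodes a heparan sulfate polymerase (5.76 kb in DFL, 0.451 kb in PFL), and Dmap1 (7.73 kb and 2.68 kb in the same order) had DFL summits of 2.59 and 2.52 times the PFL ones, at 7.20 and 14.4 times the lowest background in DFL. Dhrs3, a retinal reductase gene, was nearest to 6.74 kb in DFL and 2.78 kb in PFL. Prickle1, a planar cell polarity gene, was nearest to 2 of the 17, with 6.86 and 5.11 kb in DFL against 2.19 and 1.35 kb in PFL. A stretch beside Gdf10, a BMP family ligand gene, held 5.12 kb in DFL and 1.56 kb in PFL and had the highest fold of the 17, 6.51. The remaining 7 were nearest Actrt2, Zfhx3, Dysf, Arl14ep, Dym, Mecom and Ephb2, with 5.08 to 6.71 kb in DFL and 1.45 to 2.78 kb in PFL. By difference rather than ratio, Mecom (6.56 kb), Lmx1b (4.90 kb) and Rplp1 (4.27 kb) also stood among the 15 members with the widest DFL excess.

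At the other end, 10 members had 2.66 to 4.38 kb less in DFL than in PFL. The widest was at Disp1, which encodes the transporter that releases Hedgehog ligands, with 10.3 kb in DFL and 14.7 kb in PFL. Ddc followed with 9.49 kb in DFL and 13.5 kb in PFL, and Cpa5 with 14.6 kb and 18.5 kb. Tomm20, the Dnm3 tract, Irf2bpl, Rad51b, Fam20b, Nfe2l3 and Zfp36l1 made up the rest. None of them had a PFL length of 2 times DFL.

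**Figure D3:**
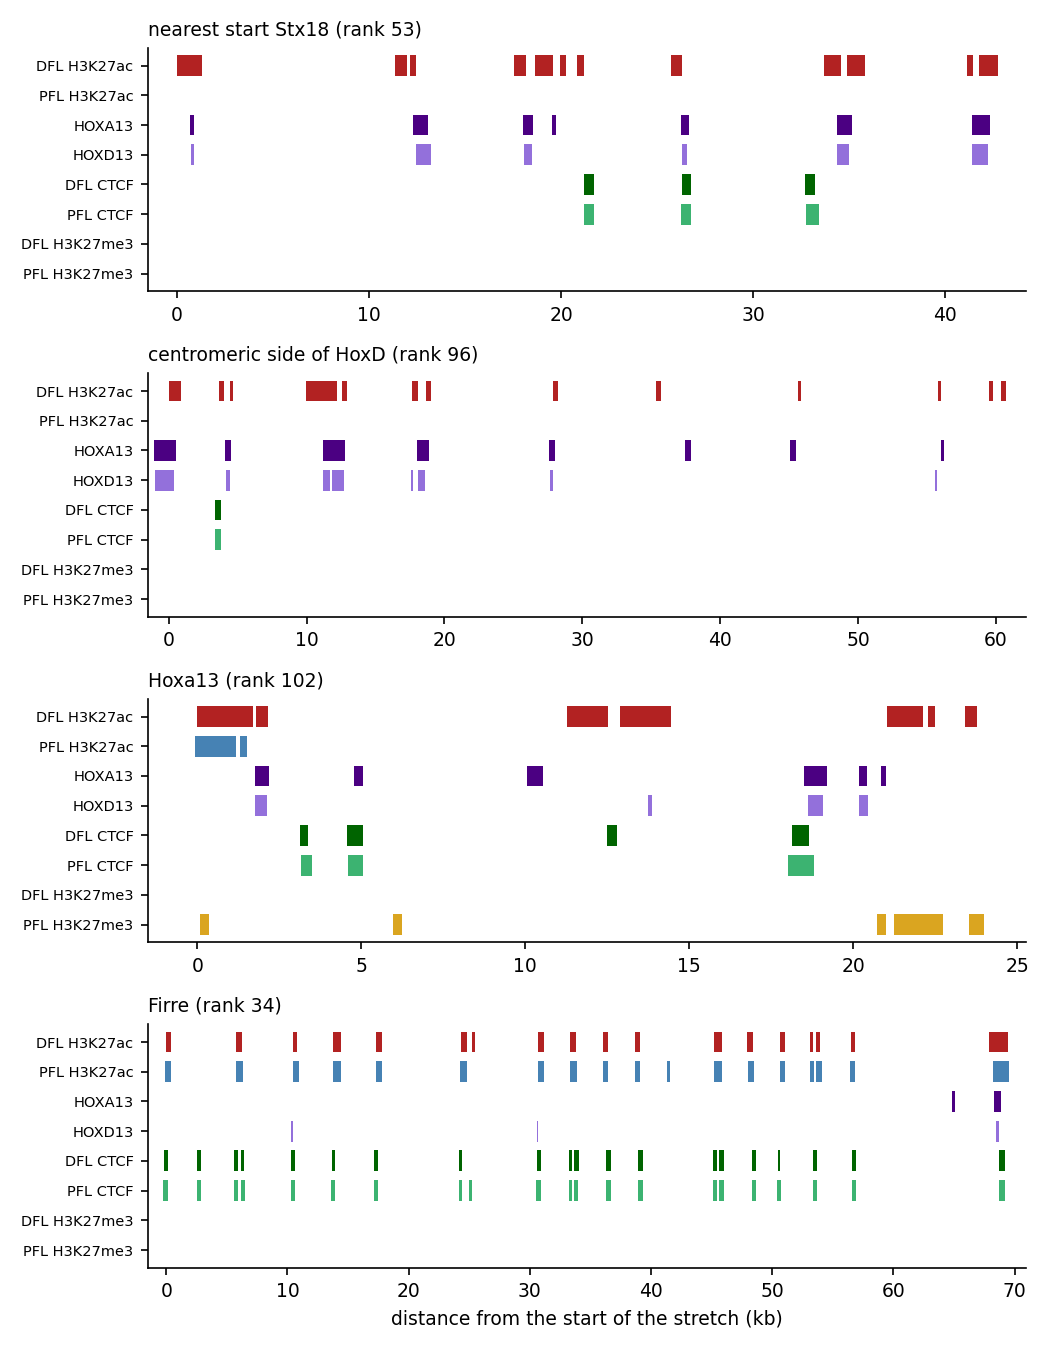
Called regions of the 8 lists (rows) along 4 members, by distance in kb from the start of the stretch, nearest Stx18, on the centromeric side of HoxD, at Hoxa13 and over Firre. The Stx18 and HoxD stretches have 12 and 13 DFL H3K27ac regions and an empty PFL row, the Hoxa13 stretch has H3K27me3 in PFL alone, and over Firre 19 of 20 DFL CTCF regions lie on H3K27ac.

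HOX13 binding was nearly universal among the members. A HOXA13 and a HOXD13 region lay on the H3K27ac regions of 287 members (95.7%, interval 92.7 to 97.5%), of 274 of the next 300 (91.3%) and of 36.2% of all stretches. The number of regions per stretch moved with this count. Per 10 kb of covered length the members had 10.8 HOX13 regions and all other stretches 11.8, so the density was no higher in members. In single regions, the share with HOX13 was higher in longer regions of both sets, up to 66.6% (63.9 to 69.2%) in members and 62.9% (61.9 to 63.9%) elsewhere in the class over 609 bp. In the 3 shorter classes the intervals of members and others overlapped, and in this longest class they narrowly did not. That class has no upper limit, so length was not held equal within it. Regions of the same stretch also share a locus, which the intervals leave out.

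The members with most HOX13 regions on their acetylated regions were largely the largest ones. The Dnm3 tract had 22 HOXA13 and 16 HOXD13 regions, the Dapk1 stretch 12 of each and the Sorl1 stretch 11 of each. Cpa5, Haao, Sox6, Lmx1b, Gas1, Mrpl23 and Ror2, a Wnt receptor gene needed for digit growth, completed the first 10 with 18 to 22 in all. The 13 members that lacked 1 or both factors comprised 7 with 0 of either (Notch1, Zcchc24, the smaller Lmx1b stretch, Prss38, Arhgef16, Col6a2 and Bgn) and 6 with only 1 of the factors (Slc30a10, BC034090, Wasf2, Ppara, Intu and Zfp982).

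HOX13 regions were more common on the DFL-alone regions of the 17 members with at least 2 times the PFL length. There, 78 of 137 DFL-alone regions (56.9%, interval 48.6 to 64.9%) overlapped HOX13, against 187 of 629 (29.7%, 26.3 to 33.4%) in the other members. These intervals cover counting error only, and regions of 1 stretch share a locus. Length differed as well, with medians of 368 bp and 304 bp. In the class over 384 and up to 609 bp the shares were 79.3% (61.6 to 90.2%) and 38.2% (30.7 to 46.3%), while in the other 3 classes the higher share was again in the 17 but the intervals overlapped. Among the next 300 stretches the same split gave 48.5% and 35.8%. The 17 are few and their choice used DFL length, so this is given as a description.

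**Figure D4:**
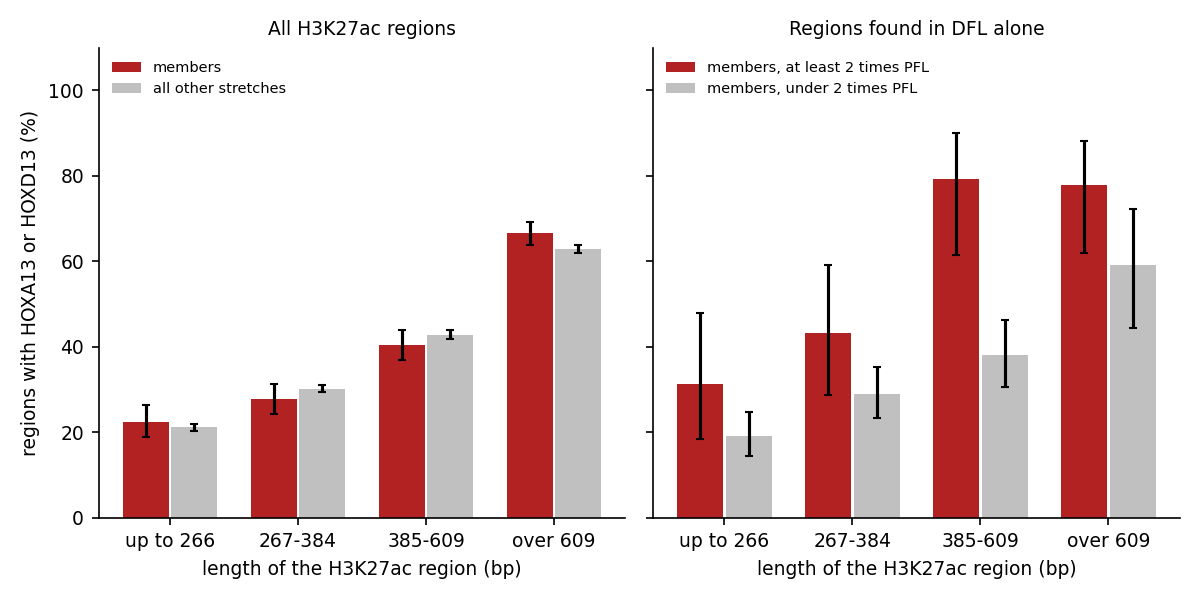
Share of DFL H3K27ac regions (%) that overlap a HOXA13 or HOXD13 region, by length class in bp, with Wilson 95% intervals as error bars. Left, regions of members (red) and of all other stretches (grey) rise together to 66.6% and 62.9%, and right, regions found in DFL alone reach 79.3% in the 17 members with at least 2 times PFL (red) and 38.2% in the other members (grey) in the class over 384 and up to 609 bp.

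HOX13 summits did not always fall inside the acetylated region they overlapped. Of the HOXA13 regions on members' H3K27ac regions, 62.7% had their summit inside, against 53.2% in other stretches, and for HOXD13 the shares were 61.8% and 52.9%. All the printed HOX13 windows are of the other kind. In the Stx18, II1, second HoxD and Dmap1 windows, the summit lay in a gap between adjoining acetylated regions.

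Sequence set the members little apart. Their regions had 49.9% GC and 12.4% repeat-masked bases, against 48.6% and 12.3% in other stretches. Within 300 bp at the highest H3K27ac summit, CAATAAA on either strand was found in 11 of 300 members (3.67%, interval 2.06 to 6.45%) and in 4.25% of all stretches. In 100 bp around the HOX13 summits themselves it occurred in 7.90% of HOXA13 windows on members' regions and 8.43% of HOXD13 windows, against 8.71% and 9.54% on other stretches. Among the 13 strings searched, GGGTGGT, a core of GLI sites, was found in 6.67% of member windows (4.36 to 10.1%) and 3.90% of those of other stretches (3.64 to 4.17%). TGATTNA, read by PBX with HOX, was found in 8.33% (5.71 to 12%) and 12.1%, which lies just above that interval. For the other 11 strings the interval of members included the share of other stretches. A match is a string of letters and does not by itself show a site.

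CTCF regions of both pieces lay inside 219 members (73.0%, interval 67.7 to 77.7%), inside 57.7% of the next 300 and inside 18.8% of all stretches, while span differed as given above. Per 100 kb of span, members held 4.90 DFL and 4.73 PFL CTCF regions, and the next 300 held 4.12 and 4.03. CTCF was as constant between pieces inside members as outside, since 87.3% of the DFL regions within members were found in PFL, against 88.7% elsewhere. In 61 members no CTCF region of either piece was called.

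Firre stood out by its CTCF. The stretch on chrX:50566588-50636048, ranked 34, had 20 DFL CTCF regions, the most of any member, and 21 PFL CTCF regions, as many as the Sfi1 stretch, in 18 H3K27ac regions that covered 9.22 kb in DFL and 9.30 kb in PFL. It also had the highest single fold of any member, 9.95, and only 1 HOXA13 and 1 HOXD13 region on its acetylated regions. Of the 20 DFL CTCF windows of 81 bp, 17 held TACTGCC (85.0%, interval 64.0 to 94.8%), a string chosen after reading them, compared with 2.93% of all other DFL CTCF windows. Of the windows printed above, the first and the second are nearly alike around the match, and the third is of another kind.

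H3K27me3 overlapped 39 members (13%, interval 9.66 to 17.3%), 27 of the next 300 and 3.1% of all stretches. The overlap was counted over the whole span, gaps included, so longer spans give more room for it. Of the 39 members, 22 carried it in PFL and not in DFL, and 4 in DFL and not in PFL. The PFL list of H3K27me3 was longer as a whole, and the same split over all stretches was 339 and 44. The Lmx1b stretch held 0 kb in DFL and 3.19 kb in PFL, and the Hoxa13 stretch 0 kb in DFL and 2.56 kb in PFL. At both, DFL had more H3K27ac. Of all 22 members with H3K27me3 in PFL alone, DFL H3K27ac was the longer in 16 and the shorter in 6, for example at Hhat and near Hand2, while over all members it was the longer in 176 and the shorter in 124. The stretch nearest Tbx5, a forelimb identity gene, had H3K27me3 of 1.27 kb in DFL and 0 kb in PFL, at 5.13 and 5.60 kb of H3K27ac. In all 4 members with H3K27me3 in DFL alone, DFL H3K27ac was the shorter.

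The longest H3K27me3 overlap was of another kind. The stretch nearest Esp38, a tract of 5.76 kb on chr17:39843036-39848794 over the non-coding gene AY036118, held 4.80 kb in DFL and 4.91 kb in PFL, and its 3 H3K27ac regions overlapped regions of all the other lists. A region found in all 8 lists also lay in the members nearest Rpusd4, Tmem267 and Sfi1. The Sfi1 stretch had 17 DFL and 21 PFL CTCF regions and 1.01 and 2.48 kb of H3K27me3. Without the regions found in all lists, 298 members still overlapped one of the 300 largest stretches, and H3K27me3 overlapped 37. The part of copy number or read placement in these 4 was not tested. Zfhx3, Cuedc1, Oaf, Ly86 and the smaller Lmx1b stretch made up the rest of the 10 with the longest H3K27me3, at 1.56 to 2.51 kb in the richer piece.

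Members lay near limb genes more often than near genes at large. Of 106 genes on 4 lists of limb regulators and signalling genes, 26 had a start within 250 kb of a member, which was so for 7.21% of all protein-coding genes. The lists had been drawn up with earlier results of these data known, so the shares are a description and not support for a link. The intervals count genes that share a stretch separately. Limb mesenchyme and cartilage genes led with 9 of 25 (36%, interval 20.2 to 55.5%), among them Prrx2 with 4 members, Mecom with 4, Zfhx3 with 3, and Twist1, Twist2, Sox6, Zfhx4, Foxc1 and Cux1 with 1 each. Distal and digit regulators followed with 8 of 30 (26.7%, 14.2 to 44.4%), of which Hoxa13, Hoxa11 and Hoxa10 shared 1 stretch. Hand2, Msx1, Lmx1b, Tbx2 and Tbx3 made up the others, with the Hand2 stretch 7.14 kb from its start (5.65 kb in DFL, 6.05 kb in PFL). The stretch counted for Tbx2, 77.1 kb from its start, overlapped Tbx4 and had the Tbx4 start nearest, at 12.9 kb. The stretch counted for Tbx3, 126 kb from its start, was nearest to Tbx5 of the proximal list, at 28.2 kb.

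Among signalling antagonists and receptors, 7 of 29 had a member in reach, including the inhibitory Smad genes Smad6 and Smad7 with 2 and 4 members. The others were Fgfr1, Fgfr2, Fzd10, Axin2 and Rarg. Of the 22 proximal regulators only Hoxa9 and Tbx5 did, Hoxa9 by way of the Hoxa13 stretch and Tbx5 by way of the stretch also counted for Tbx3. The share of this list was 9.09%. Its interval, 2.53 to 27.8%, included the 7.21% of all protein-coding genes and overlapped that of the distal list.

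Of the lists for other cell types, none stood clear of the background. Surface ectoderm had 1 of 22 (Dlx3), muscle 2 of 15 (Pax7 and Chrna1), endothelium and blood 3 of 20 (Erg, Lyl1 and Klf1), nerve and glia 2 of 12 (Neurog1 and Mitf) and forebrain 1 of 12 (Six3). Their shares ran from 4.55 to 16.7%, and their intervals all included 7.21%. At promoters, H3K27ac was called at 0 of 4 muscle markers in DFL and 3 of 4 in PFL, at 4 and 2 of 4 ectoderm markers, and at 4 and 3 of 4 endothelial markers. All 6 distal markers were marked in both pieces, and 4 of 5 proximal markers in DFL and 5 of 5 in PFL. In tissue pieces, fewer cells of a type and less mark per cell cannot be told apart.

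**Figure D5:**
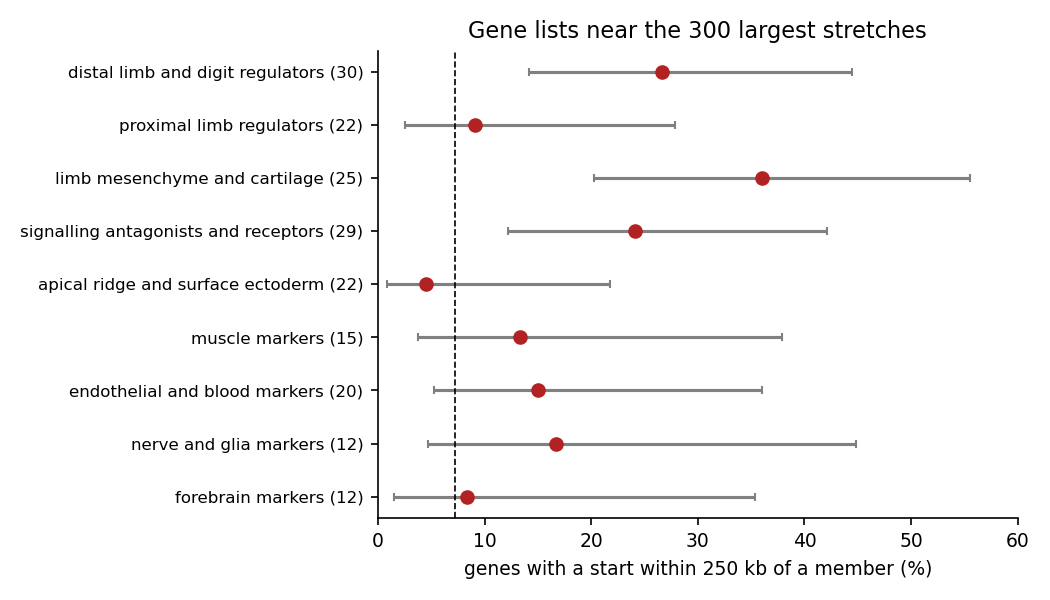
Share of genes (%, horizontal axis) on each of 9 lists with a start within 250 kb of a member, with Wilson 95% intervals, the number of genes in parentheses and the dashed line at 7.21% for all protein-coding genes. Limb mesenchyme and cartilage (36%), distal limb (26.7%) and signalling genes (24.1%) lie right of the line with their whole intervals. The lists were drawn up with earlier results of these data known, and genes that share a stretch count separately.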

How the data were processed

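Lists of called regions from 6 ChIP-seq samples (1 library per mark and piece, wild type) and 2 HOX13 lists that belong to no sample were analysed. The authors trimmed reads with cutadapt, aligned them to mm10 with Bowtie, filtered with SAMtools and called peaks with MACS2 without an input control. The deposited fold column is a ratio of pileup to local background, with p-values and q-values as −log10 and a score column derived from them, which was not used. The largest q-value was 0.05 in the deposited lists. Rows with the same interval were collapsed. Starts came from GENCODE M21 basic transcripts. An overlap was at least 1 bp. Pileup was solved as a whole number from fold and −log10 p (tolerance 0.01), for 100% of DFL and 99.99% of PFL H3K27ac regions, with lowest backgrounds of 12.5 and 11.9 reads. Read depth was not used. Interval functions were tested on simulated data. Shares carry Wilson 95% intervals, for counting error only. Without replicates no test was run. The members and lists were chosen with earlier results of these data known. Named genes are those nearest the 20 largest members, the 15 highest and 10 lowest in DFL minus PFL, the 10 with most HOX13 regions and the 10 with most H3K27me3, genes nearest at least 3 members, list genes within 250 kb, and 5 stretches each side of the limit. Some items that the rule names are not reported here. Genes named outside it (miRNA hosts, Firre, members lacking HOX13, other members of the 17, promoter markers) were chosen after their values were seen. Python 3.11.15, pandas 2.3.3, scipy 1.17.1 and pysam 0.24.0 were used.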

Additional observations from a re-analysis of the deposited data

How the results depend on the processing

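No paired analysis was possible because each mark and piece had 1 library, and no library could be left out. With the 100 and the 600 largest stretches, the counts were 7 and 43 for at least 2 times the PFL length, 54 and 350 for overlap with equally many PFL stretches, 98 and 561 for both HOX13 factors, 80 and 392 for CTCF of both pieces, 15 and 66 for H3K27me3, and 4 and 17 for CAATAAA. The 100 largest were near 9 limb list genes. At least 2 times the PFL length was reached by 11 stretches with no regions dropped near starts and by 11 when ranked by length times fold. CTCF of both pieces lay in 123 stretches joined at 5 kb. H3K27me3 overlapped 17 stretches joined at 5 kb, 82 joined at 25 kb, 86 with no regions dropped, and 19 when only H3K27me3 regions with −log10 q of at least 5 were used. Within 500 kb, 40 limb list genes were reached. CAATAAA was found in 4 windows of 200 bp, and in 4 with no regions dropped. All other alternatives stayed within 1.5 times the count given. The identity of members depended on the joining distance, since 130 members overlapped the 300 largest stretches joined at 5 kb, and 158 those with no regions dropped. Leaving out regions found in all lists and keeping PFL regions near starts (16 stretches with at least 2 times PFL) were chosen after seeing the data. The list lengths depend on read depth, which limits DFL and PFL comparisons of length.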
